A study of Mus musculus with 6 samples.

Results

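The Fat cadherins, the Dachsous cadherin Dchs1 and the kinase Fjx1 were taken from the expression table by their names: Fat1, Fat2, Fat3, Fat4, Dchs1 and Fjx1, 6 genes of 21553 with values. All 6 were found, and 5 reached the expression minimum of a mean of 1 cRPKM, as did 12315 genes in all. The measure, cRPKM, is the authors' corrected RPKM, which divides reads by gene length and by library depth, so that levels of different genes can be set side by side per length. The libraries came from kidneys of mouse embryos at E13.5, with 1 library per embryo and the kidneys of an embryo pooled. In one group 3 embryos were Fat4-/-, homozygous for a mutation of Fat4. In the other 3 embryos were Fat4+/+, and no further allele or agent is given for either group. All embryos were on C57BL6/6, backcrossed for 6 generations, and came from a single pregnant female, so the spread between libraries is that within 1 litter. Most of the ureter had been taken off, and the tissue held ureteric bud, condensing mesenchyme and stroma. The labels do not say which part of Fat4 the mutation removes. Dchs2 was not analysed here.

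Fat and Dachsous proteins are very large cadherins that sit on neighbouring cells and bind one another through long rows of extracellular cadherin repeats. Fat4 is the closest mammalian relative of the fly protein Fat, and its known ligands are Dchs1 and Dchs2. The secreted and Golgi protein Fjx1 is the relative of the fly kinase Four-jointed, which phosphorylates cadherin repeats and so tunes the binding. In flies the system sets tissue polarity and feeds into the Hippo growth pathway. In the embryonic kidney Fat4 is known as a gene of the stroma, and the study's title places its action with Dachsous proteins on the nephron progenitors. Fat1, Fat2 and Fat3 are relatives with other roles: Fat1 organises actin and cell contacts and is needed in podocytes, Fat2 acts in migrating epithelia and the cerebellum, and Fat3 shapes neurons of the retina.

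The cadherin members are genes of 17 to 29 exons. In GENCODE release M21 on GRCm38, Fat4 (ENSMUSG00000046743) lies on chromosome 3 from 38886940 to 39011985 on the plus strand, with 17 exons and a protein of 4981 residues. Fat1 (ENSMUSG00000070047, chromosome 8, 44935447 to 45052257) encodes 4645 residues, Fat2 (ENSMUSG00000055333, chromosome 11, 55250609 to 55336564) 4351, and Fat3 (ENSMUSG00000074505, chromosome 9, 15910189 to 16501285) 4551. Dchs1 (ENSMUSG00000036862, chromosome 7, 105752990 to 105787654) encodes 3291 residues. Fjx1 (ENSMUSG00000075012, chromosome 2, 102449366 to 102452499) is a gene of 1 exon that encodes 450 residues. Antisense genes share 1209 and 281 exon bases with Fat4 and 487 with Fat1, and an antisense pseudogene shares 648 with Dchs1. The labels do not say whether the libraries kept strand, so reads from these partners cannot be told apart from those of the members.

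Read totals are unknown. The steps between low values were searched only for factors near 1, which cannot show a large gap in depth. The factors found, 0.906 to 1.04 with wildtype embryo 1 set to 1, explained from 17 of 35 (wildtype embryo 3) to 22 of 32 (mutant embryo 2) of the genes used. No pair of libraries held the same value at more than 0.739% of tested genes. Markers of the kidney compartments were present: all 13 cortical stroma, 11 nephron progenitor, 11 ureteric epithelium and 10 early nephron markers were above the minimum. Of other tissues, the 5 liver markers summed to at most 1.12 cRPKM and the 4 adrenal cortex markers to at most 2.37. The 5 gonad markers summed to 14.8 to 17.5 cRPKM, mostly Sox9 and Inha, and the 5 of neural crest and nerve to 18.7 to 22.7, mostly Erbb3 and Stmn2. The 5 skeletal muscle markers summed to 5.42 to 15.2, highest in wildtype embryo 1, where Actc1 was at 7.26. Their part in the levels of the members was not tested. Y-linked genes had a mean log2 level of 3.999 to 4.13 in the Fat4+/+ embryos and mutant embryo 1, but of 0.0285 and 0.0530 in mutant embryos 2 and 3. Sex was thus uneven between the genotypes.

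In wildtype kidneys the ligand gene Dchs1 was the member with the highest level, with 27.82, 27.28 and 30.01 cRPKM. Fat1 followed at 23.20, 23.85 and 29.80 cRPKM, and its range overlapped that of Dchs1. Dchs1 was nevertheless the higher of the pair in each of the 6 libraries, with Fat1 at 0.751 to 0.993 of its level. Next came Fat4 at 16.74, 15.69 and 16.83 cRPKM, then Fjx1 at 9.85, 10.87 and 11.55, with no overlap between neighbours. Fat3 was at 3.22, 2.99 and 3.17 cRPKM, and Fat2 at 0.14, 0.12 and 0.19. By its wildtype mean Dchs1 stood above 85.3% of all genes with values, Fat1 above 83.3%, Fat4 above 74.8%, Fjx1 above 66.8%, Fat3 above 50.7% and Fat2 above 30.6%. By the mutant mean Fat4 stood above 61.0%. These shares are of all genes with values, of which 2818 were at 0 in every library. By the mean over the 6 libraries, ranks from the highest were 3055 for Dchs1, 3720 for Fat1 and 7065 for Fjx1. Fat3 ranked 10547, and Fat4, with its mutant values included, 6691. Since 12315 genes reached the minimum, Fat3 was among the lower of these, and Fat2 was the member too low to test.

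**Figure D1:**
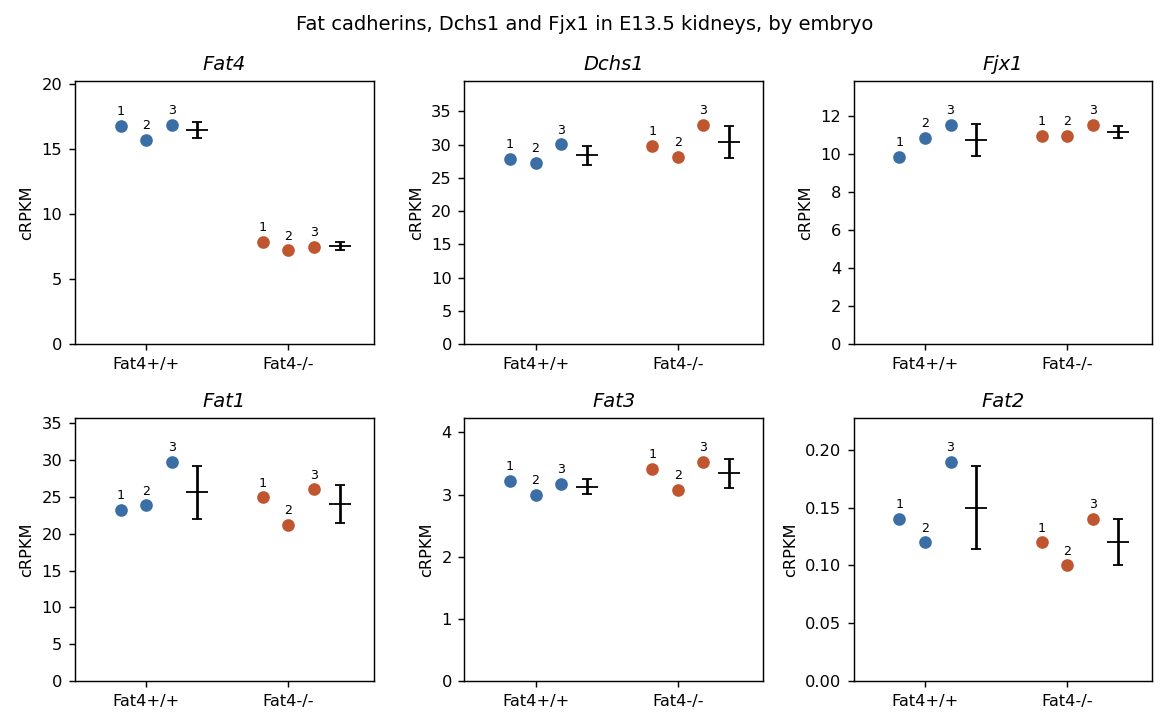
Level of each member in cRPKM (vertical axis, from 0, with its own scale in each panel) in the 3 Fat4+/+ and 3 Fat4-/- embryos; points are libraries, numbers are embryos, and the bar is the mean with the SD. The Fat4 panel alone shows separate groups, at 15.69 to 16.83 against 7.20 to 7.82 cRPKM.

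The comparison of mutant with wildtype kidneys asks how the loss of Fat4 alters the tissue, and here whether the rest of the receptor and ligand system changed with it. Fat4 fell, and no other tested member passed the test. In mutant libraries Fat4 was at 7.82, 7.20 and 7.49 cRPKM, below every wildtype library. The mean went from 16.4 ± 0.634 to 7.503 ± 0.310 cRPKM (SD, n = 3), so that 45.7% of the wildtype level of RNA remained in the table. The difference on the log2(cRPKM + 1) scale was -1.03 (SE 0.0476, 95% interval -1.14 to -0.93), with an adjusted p of 0.000155 in limma's moderated test across all genes. Of all 12315 genes tested, 1.43% were called at an adjusted p under 0.05, 0.877% lower and 0.552% higher. Fat4 had the smallest p of all. By size its fall ranked 13 from the lowest; of the 12 genes with a lower log2 fold change Hnf4a alone was called, and the 4 lowest were the Y-linked genes Eif2s3y, Ddx3y, Kdm5d and Uty.

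Fat4 RNA was also close to constant within each genotype. The SD was 3.86% of the mean in wildtype and 4.13% in mutant libraries, and 65.8% of tested genes had a larger residual SD. The drop did not rest on any single library: without each in turn the log2 fold change ran from -1.07 to -1.01, with adjusted p values from 0.000436 to 0.00164. Mutant embryo 1, which expressed the Y-linked genes as the wildtype embryos did, held 7.82 cRPKM, the highest of the mutant values and still below 15.69. With the Y-linked score as a covariate the log2 fold change was -0.98 (SE 0.0648, limma adjusted p = 0.0189).

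Since Fat4 is a gene of the stroma, its level was set against the stromal markers of the same library. In bulk RNA, fewer cells of a type and less RNA per cell cannot be told apart. The 13 cortical stroma markers summed to 1052 to 1267 cRPKM in wildtype and 1043 to 1091 in mutant libraries, none of them at 0, and 1 of the 13 (Pdgfra, a growth factor receptor gene) was called lower and none higher, against 0.877% lower over all genes. In 5 of the 13 the mutant values lay wholly below the wildtype values and in none wholly above. Of all 12315 tested genes, 1355 lay wholly below and 890 wholly above. Library weights raised the calls to 4 and quantile normalisation to 2, all lower. A Y-linked covariate left 0 of them, and over all genes it left 2 of 176 calls. The median log2 fold change of the 13 markers was -0.15, against -0.01 over all tested genes, and was -0.02 without wildtype embryo 1. Divided by the geometric mean of these markers, with 1 cRPKM added to every gene, Fat4 was at 0.244, 0.247 and 0.292 in wildtype and 0.149, 0.135 and 0.141 in mutant libraries. The log2 difference of this ratio was -0.88, with no overlap between the groups (exact permutation p = 0.1, the smallest possible). The log2 fold changes of the 13 markers ran from -0.49 (SE 0.274) to 0.09. The part of the stroma in the drop of Fat4 was not tested.

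The ligand gene Dchs1 was at 29.84, 28.20 and 32.95 cRPKM in mutant libraries, against 27.28 to 30.01 in wildtype. The groups overlapped, with mutant embryo 3 above and mutant embryo 2 within the wildtype range. The means were 28.4 ± 1.45 and 30.3 ± 2.41 cRPKM (SD, n = 3), a log2 fold change of 0.09 (SE 0.0624, limma adjusted p = 0.609). The 95% interval ran from 0.965 to 1.18 times the wildtype level of cRPKM + 1. Dchs1 is known to act in nephron progenitors, so their markers are given beside it. Of 11 such markers 3 were called higher and none lower, against 0.552% higher over all genes, with a median log2 fold change of 0.33 and Crym lowest at -0.14. In 9 of the 11 the mutant values lay wholly above the wildtype values, against 890 of all 12315 tested genes. The 3 calls became 1 without wildtype embryo 1 or any 1 mutant embryo, and 5 when libraries were weighted. They became 4 under quantile or median-of-ratios scaling, and 0 once the Y-linked score was a covariate. Over all genes that covariate left 2 of 176 calls. The summed level of the 11 markers was 438.8 to 484.8 cRPKM in wildtype and 525.6 to 593.0 in mutant libraries. Dchs1 and these markers were both highest in mutant embryo 3, and their part in the level of Dchs1 was not tested.

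Fjx1, the kinase gene of the system, was at 10.99, 10.97 and 11.55 cRPKM in mutant libraries. These values lay inside the wildtype range of 9.85 to 11.55, and the highest value was the same in both genotypes. The mean was 10.8 ± 0.856 in wildtype and 11.2 ± 0.329 cRPKM in mutant libraries (SD, n = 3; log2 fold change 0.05, SE 0.0584, limma adjusted p = 0.777). The 95% interval of the fold was 0.945 to 1.14. Without wildtype embryo 1, the lowest library, the difference changed sign to -0.0045, with a limma adjusted p of 0.993.

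Fat1, the most abundant Fat gene, was at 24.93, 21.17 and 26.03 cRPKM in mutant libraries, within or below the wildtype range of 23.20 to 29.80. Its means were 25.6 ± 3.64 and 24.0 ± 2.55 cRPKM (SD, n = 3; log2 fold change -0.08, SE 0.103, limma adjusted p = 0.798). The 95% interval of the fold, 0.801 to 1.11, was the widest among the members. Fat1 spread more between embryos of a genotype than most genes did, as 4.38% of tested genes had a larger residual SD. Wildtype embryo 3 was the highest library: without it the log2 fold change was 0.025 (limma adjusted p = 0.930), and without mutant embryo 2 it was 0.00086 (adjusted p = 0.999). In wildtype embryo 3 epithelial markers stood high as well. The 11 ureteric markers were 0.19 above the wildtype mean there on the log2 scale, against -0.13 and -0.06 in wildtype embryos 1 and 2, and the 10 early nephron markers 0.20 above, against -0.17 and -0.03. Their part in the level of Fat1 was not tested.

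Fat3 was at 3.41, 3.08 and 3.53 cRPKM in mutant libraries. Mutant embryo 2 lay within the wildtype range of 2.99 to 3.22 and the other mutant embryos above it. The means were 3.13 ± 0.121 and 3.34 ± 0.233 cRPKM (SD, n = 3; log2 fold change 0.07, SE 0.0589, limma adjusted p = 0.678), and the fold had a 95% interval of 0.957 to 1.15. Fat2 was at 0.12, 0.10 and 0.14 cRPKM in mutant libraries, within or below the wildtype range of 0.12 to 0.19. It was under the expression minimum and was not tested. Of the 5 tested members, 1 had groups without overlap, Fat4; over all tested genes the share was 18.2%.

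How large a change could have been seen differed between the members. A call at an adjusted p of 0.05 corresponded here to an unadjusted p of at most 0.000714. With each gene's own standard error that took a fold of cRPKM + 1 of 1.19 for Fat4, 1.24 for Fat3 and for Fjx1, 1.25 for Dchs1 and 1.45 for Fat1, or its inverse. The intervals of Dchs1, Fat3 and Fjx1 ended below those folds, and so did that of Fat1. Changes of the size seen for Fat4 lie outside all 4 intervals, while smaller folds than those needed for a call were not detectable with 3 embryos a group.

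**Figure D2:**
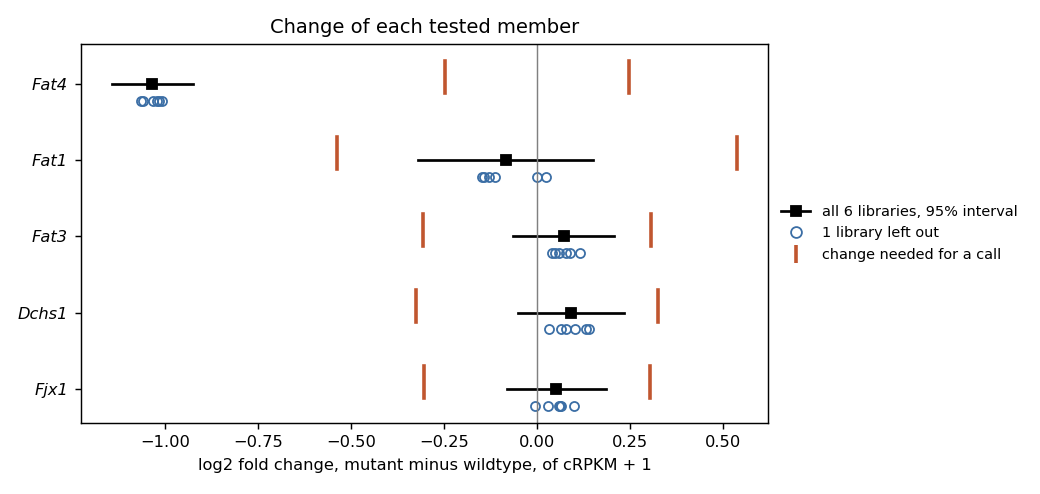
Log2 fold change of cRPKM + 1, mutant minus wildtype (horizontal axis), of the 5 tested members; squares and lines are the limma estimate from all 6 libraries with its 95% interval, open circles the estimates with 1 library left out, and vertical ticks the change needed for a call. Fat4 lies at -1.03, beyond its tick, and the intervals of the other 4 genes include 0 and end inside theirs.

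**Figure D3:**
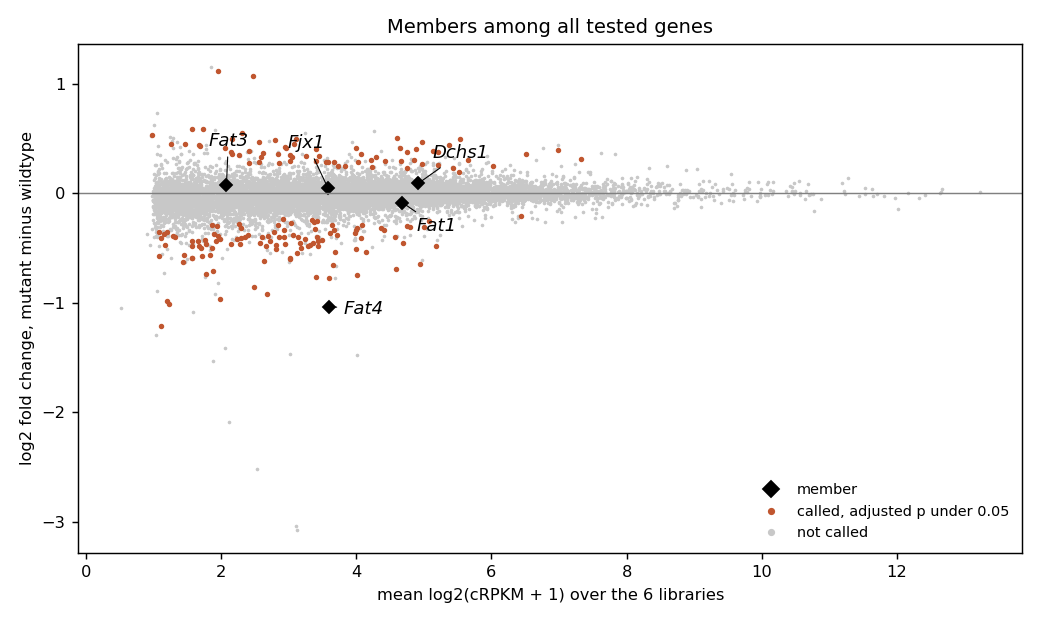
Log2 fold change, mutant minus wildtype (vertical axis), against the mean log2(cRPKM + 1) over the 6 libraries (horizontal axis) for the 12315 tested genes; diamonds are members, coloured points the other called genes. Fat4 at -1.03 ranks 13 from the lowest, with Hnf4a the only called gene below it. Dchs1, Fjx1, Fat1 and Fat3 lie within the bulk.

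Ratios between members gave the balance of the system in each library. The ratio of Fat4 to its ligand gene Dchs1 was 0.602, 0.575 and 0.561 in wildtype libraries and 0.262, 0.255 and 0.227 in mutant libraries. The mutant ratios were 0.428 of the wildtype ratios (log2 difference -1.22), and the groups did not overlap. An exact permutation test gave p = 0.1, the smallest that 3 embryos against 3 allow (2-sided; 0.15 adjusted over the 6 ratios examined). Fat4 to Fat1 was 0.565 to 0.722 in wildtype libraries and 0.288 to 0.340 in mutant libraries. Fat4 to Fat3 was 5.20 to 5.31 in wildtype libraries and 2.12 to 2.34 in mutant libraries. Each of these had the same exact permutation p. A ratio within a library does not depend on how the library was scaled.

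Ratios without Fat4 differed less between the genotypes. Fat1 to Dchs1 was 0.834, 0.874 and 0.993 in Fat4+/+ and 0.835, 0.751 and 0.790 in Fat4-/- libraries (log2 difference -0.18; exact permutation p = 0.2, adjusted 0.24), with mutant embryo 1 inside the wildtype range. Fjx1 to Dchs1 was 0.354 to 0.398 in Fat4+/+ and 0.351 to 0.389 in Fat4-/- libraries (log2 difference -0.04; exact permutation p = 0.7, adjusted 0.7). The order of the members by level changed at 1 place: Fat4 was above Fjx1 in the 3 wildtype libraries and below it in the 3 mutant libraries.

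The Fat genes together were lower in mutant kidneys by about the drop in Fat4. Summed over Fat1 to Fat4, the Fat4+/+ libraries held 43.30, 42.65 and 49.99 cRPKM and the Fat4-/- libraries 36.28, 31.55 and 37.19. The means were 45.3 ± 4.06 and 35.01 ± 3.03 cRPKM (SD, n = 3), a difference of -10.3, of which Fat4 itself gave -8.92. Fat4 made up 33.7% to 38.7% of the sum in wildtype and 20.1% to 22.8% in mutant libraries, and Fat1 made up 53.6% to 59.6% in wildtype and 67.1% to 70.0% in mutant libraries. That larger share of Fat1 came with a Fat1 level that did not pass the test.

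Within each genotype 1 library was the lowest or the highest for most members. Mutant embryo 2 had the lowest value of the mutant libraries for all 6 members, for Fjx1 narrowly (10.97 against 10.99 cRPKM in mutant embryo 1). For Fat2, under the expression minimum, it was 0.10 against 0.12 cRPKM in mutant embryo 1. Wildtype embryo 3 had the highest wildtype value for 5 of the 6, Fat3 being the exception. The share of all tested genes that were lowest or highest in these libraries was not counted. Apart from Fjx1, whose annotated transcript is of 3134 bases, the members have transcripts of 10754 to 18760 bases. Long transcripts in general also shifted between libraries, in a comparison chosen after these values were seen. For the 283 other tested genes with a transcript of at least 10 kb, the median deviation from the mean of the genotype was 0.01, -0.09 and 0.08 in wildtype embryos 1, 2 and 3 and 0.06, -0.09 and 0.03 in mutant embryos 1, 2 and 3. Over all tested genes with a known length it stayed between -0.004 and 0.010. The deviations of the 5 long members had the sign of the median of the long genes for all 5 in wildtype embryos 2 and 3 and mutant embryo 2. The same held for 4 in mutant embryos 1 and 3, and for 2 in wildtype embryo 1, where Fat1 was at -0.13. Fat2, under the expression minimum, is among them, at 0.00015 in mutant embryo 1. The share of the 283 long genes with that sign was not counted. Deviations cancel within a genotype, so its libraries are not independent. Dchs1 deviated by -0.03, -0.05 and 0.08 and by -0.02, -0.10 and 0.12 in the same order. The short Fjx1 was likewise high in wildtype embryo 3 (0.10), but was about equal in mutant embryos 1 and 2 (-0.021 and -0.024). The median log2 fold change of the 283 long genes was -0.07, against -0.01 over all tested genes with a known length. The part of transcript length in the spread and in the changes of the members was not tested.

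**Figure D4:**
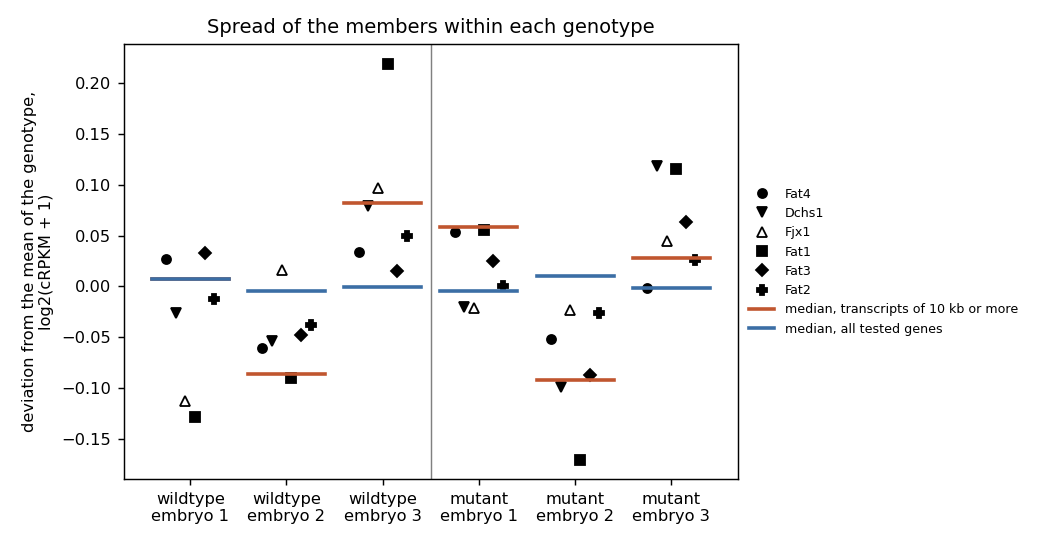
Deviation of each member from the mean of its genotype in log2(cRPKM + 1) (vertical axis) by library (horizontal axis); black symbols are members with long transcripts, white triangles Fjx1, and lines the medians of the 283 long genes and of all tested genes. Members and long genes lie low together in mutant embryo 2 (median of long genes -0.09) and in wildtype embryo 2 (-0.09), where Fjx1 at 0.02 does not.

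Genes whose products meet the Fat and Dachsous proteins, or are relatives of fly genes of that pathway, showed no call. Of 26 such genes 25 were tested, and none was called in either direction, against 1.43% of all tested genes. At an unadjusted p under 0.05 (limma) were 4, 3 higher and 1 lower, a threshold that 13% of all tested genes passed. Their median log2 fold change was 0.03, against -0.01 over all tested genes. The smallest p values belonged to Zyx, an actin-associated LIM protein gene (52.5 ± 1.86 and 58.6 ± 2.21 cRPKM, SD, n = 3; limma adjusted p = 0.166), to the casein kinase gene Csnk1e (log2 fold change 0.13, limma adjusted p = 0.212) and to the F-box gene Fbxl7 (-0.22, limma adjusted p = 0.243).

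The Hippo core, the kinase cascade and its transcription factors downstream of Fat in flies, also showed no call. None of its 21 tested genes was called, against 1.43% of all tested genes. None had an unadjusted p under 0.05 in limma, against 13%, and the median log2 fold change of the 21 was -0.03. Tead2, a DNA-binding partner of Yap, was at 162.4 ± 5.75 and 173.8 ± 6.80 cRPKM (SD, n = 3; limma adjusted p = 0.455). The kinase gene Taok3 (-0.11) and Mob1a (-0.07), for an activator of the Lats kinases, came next by p (limma adjusted p = 0.496 and 0.542).

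In the planar polarity core, the set of proteins that orients cells in a sheet, none of 14 tested genes was called. Of all tested genes 1.43% were called. At an unadjusted p under 0.05 (limma) were 4 of the 14, 2 higher and 2 lower, against 13% of all tested genes. The median log2 fold change of the list was -0.01. Ankrd6, a relative of the fly gene diego, was at 9.78 ± 0.391 and 11.3 ± 0.333 cRPKM (SD, n = 3; limma adjusted p = 0.0911), and its groups did not overlap. Prickle2 was at 5.71 ± 0.209 and 4.76 ± 0.273 cRPKM (SD, n = 3; limma adjusted p = 0.09998), likewise without overlap. Ptk7, for a pseudokinase receptor, was at 0.16 on the log2 scale (limma adjusted p = 0.203). In this list groups did not overlap for 2 genes with a higher and 2 with a lower mutant level, against 18.2% of all tested genes.

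Among 24 tested genes of the rest of the cadherin superfamily 2 were called higher and none lower, against 0.552% and 0.877% over all genes. Cdh2, for N-cadherin, had 38.80, 40.91 and 37.25 cRPKM in Fat4+/+ and 46.39, 45.01 and 46.33 in Fat4-/- libraries (log2 fold change 0.23, limma adjusted p = 0.0487). Pcdh8, a protocadherin gene, had 1.70, 1.89 and 1.64 cRPKM in Fat4+/+ and 2.55, 3.04 and 2.61 in Fat4-/- libraries (log2 fold change 0.44, limma adjusted p = 0.0267). Both were higher in every mutant library. The call of Cdh2 ended without each of the 6 libraries in turn (limma adjusted p 0.0563 to 0.166) and that of Pcdh8 without each except wildtype embryo 2 (0.0412 to 0.0967). Over all genes, 23 to 108 of the 176 calls remained with 1 library left out. The calls of Cdh2 and Pcdh8 also ended with the Y-linked score as a covariate (limma adjusted p = 0.519 for each). That fit called 1 gene higher and 1 lower of all 12315. In it the log2 fold changes were 0.245 for Cdh2 and 0.37 for Pcdh8. The median of the list was 0.00364, and 5 of its genes had an unadjusted p under 0.05 with a higher and 7 with a lower mutant level, against 13% of all tested genes. Groups did not overlap for 6 with a higher and 7 with a lower mutant level, against 18.2%.

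**Figure D5:**
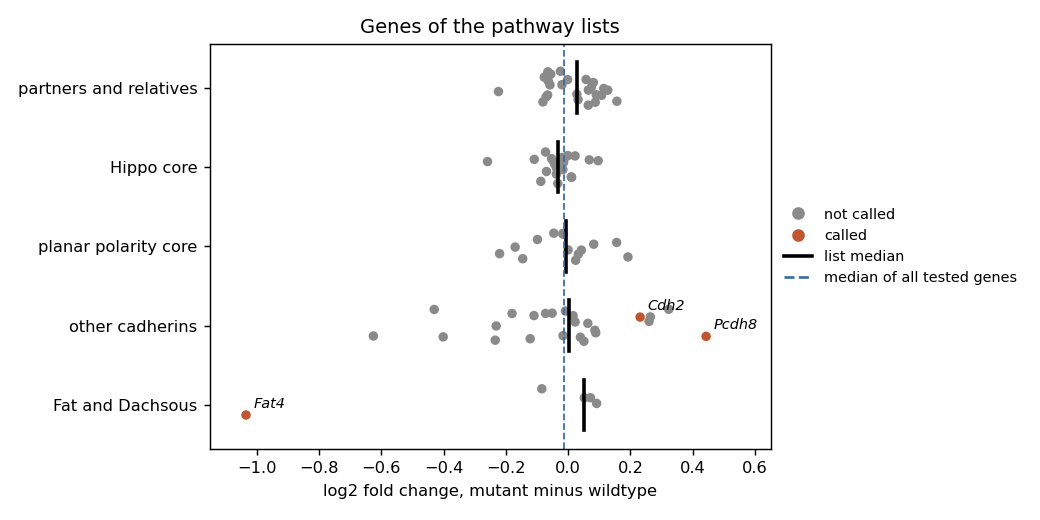
Log2 fold change, mutant minus wildtype (horizontal axis), of the tested genes of each pathway list (rows); points are genes, black bars list medians and the dashed line the median of all tested genes at -0.01. Fat4 at -1.03, Cdh2 at 0.23 and Pcdh8 at 0.44 are the called genes.

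Genes with a pattern over the 6 libraries most like that of Fat4 were sought among the 9591 others that averaged 5 cRPKM or more. Likeness was the root mean square difference of log2(cRPKM + 1) after centring each gene on its own mean. The nearest was Enpp2, for the secreted lysophospholipase autotaxin, which had 8.07, 6.87 and 8.72 cRPKM in Fat4+/+ and 3.49, 3.89 and 3.67 in Fat4-/- libraries, with a difference of 0.106 log2 units. Enpep, for an aminopeptidase, followed at 0.175, Igfbp7, for a secreted growth factor binding protein, at 0.191, Mccc1, for a mitochondrial carboxylase subunit, at 0.194 and Clu, for clusterin, at 0.211. All 5 were called lower, which a likeness to Fat4 largely fixes, and none came within 0.1 of its pattern; the median gene was at 0.519. The calls of Enpp2 and Mccc1 held without each library in turn (limma adjusted p at most 0.0239 and 0.0126). Those of Enpep and Igfbp7 ended without any 1 mutant embryo (limma adjusted p up to 0.0796 and 0.0967), and that of Clu without mutant embryo 1 or 2 (up to 0.0651). With the Y-linked score as covariate the calls of all 5 genes ended (limma adjusted p 0.1002 to 0.489). That fit left 2 of the 176 calls over all genes. The log2 fold changes of the 5 genes in it ran from -0.98 (Enpp2) to -0.62 (Mccc1).

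For the members that did not pass the test, likeness chose other flat genes. Nearest to Fat1 were Aff1 (0.0294 log2 units) and Ptpn14 (0.0325), which like Fat1 were highest in wildtype embryo 3, at 7.33 and 21.47 cRPKM. Nearest to Dchs1 were AC084315.1 (0.0185) and Slc12a9 (0.0249), to Fat3 Lpin2 (0.0175) and Plch1 (0.0180), and to Fjx1 Mtss1l (0.0107) and Btbd9 (0.0153). Such likeness was common: 3667 genes lay within 0.1 of Dchs1, 6038 within 0.1 of Fat3 and 5357 within 0.1 of Fjx1, but 557 within 0.1 of Fat1.

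Mccc1 starts 2.93 Mb from the start of Fat4 on chromosome 3. Of 99 tested genes within 20 Mb of Fat4 and other than it, 8 were called, 1 higher and 7 lower (8.08%), against 167 of 12029 elsewhere (1.39%). The nearest tested neighbour, Ankrd50, lies 402 kb away and was at 10.1 cRPKM in wildtype and 8.78 in mutant libraries (log2 fold change -0.18, limma adjusted p = 0.114). Positions are those of GRCm38, to which the expression values do not refer.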

How the data were processed

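RNA of 6 libraries (3 Fat4-/- and 3 Fat4+/+ embryos) was measured. The authors deposited 1 table of RPKM in a corrected form, cRPKM, per gene and library; per the file headers the reads had been trimmed, and Bowtie and mm9 are named, without versions, in the submitters' processing notes. Of 22667 genes 1114 held no value. Counts per gene were not used here. Columns were matched to samples by the header given in each description. Genes averaging 1 cRPKM or more were compared on the log2(cRPKM + 1) scale by limma (version 3.58.1, R 4.3.3; lmFit and trended eBayes, 2-sided, no term but genotype), with Benjamini-Hochberg adjustment over all 12315 and calls at 0.05; the pseudocount understates changes of low genes. The code was tested on simulated data. Ratios were tested by exact permutation of libraries. Gene models came from GENCODE M21, and list genes were matched by symbol or Ensembl identifier. Named were the members, in each pathway list the called genes or else the 3 of smallest p, and the genes of nearest pattern; Pdgfra and the genes below Fat4 were named after their values were seen. The members and lists were chosen with earlier results of these data known. Alternatives were other pseudocounts, minimums, scalings, covariates and omitted libraries.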

Additional observations from a re-analysis of the deposited data

How the results depend on the processing

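Fat4 was called lower under all 14 alternatives (log2 fold change -1.12 to -0.98, limma adjusted p 5.84e-05 to 0.0189), and Dchs1 and Fat3 kept their sign and passed under none. Fat1 ran from -0.15 to 0.025 and Fjx1 from -0.0045 to 0.10 with 1 library left out, passing in no case; Fat1 reversed without wildtype embryo 3 (0.025) or mutant embryo 2 (0.00086), Fjx1 without wildtype embryo 1, and the cause was not tested. Fat2 was at -0.04, and at -0.18 with a pseudocount of 0.1, which damps low genes less. The 68 higher and 108 lower calls over all genes became 10 and 22 without an expression minimum. They became 7 to 53 and 17 to 87 with 1 library left out. With the Y-linked score as covariate there were 1 and 1 (residual degrees of freedom 3 instead of 4). The score was high in the 3 wildtype embryos and in mutant embryo 1 only, so it overlapped with genotype. A call lost in that fit therefore cannot tell sex from genotype. With a minimum of 5 there were 61 lower calls. With the embryo number as a replicate block there were 109 and 164; the labels do not say that the numbers pair the embryos, although same-numbered embryos carry consecutive library names in the column headers, and same-numbered embryos deviated together with correlations of 0.0986, 0.205 and 0.277, with wildtype embryo 1 closest to mutant embryo 2 (0.227). With the block Fat4 stayed called, no other member passed, 3 other cadherin genes were called lower and 8 of 11 nephron progenitor markers higher. Dchs1 and Fat3 were higher in the mutant embryo of each of the 3 same-numbered pairs, but did not pass with the block (limma adjusted p = 0.254 and 0.530). The share of all tested genes with the same sign in all 3 pairs was not counted. The 2 higher calls among other cadherins went to 0 without a minimum or with the Y-linked score. Read totals are unknown, so no counting error can be given, for Fat2 in particular.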
